A study of Mus musculus with 3 samples.

Results

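The genes described here are 10 members of the Egr, Nr4a and AP-1 families, which T cells switch on within minutes to hours of receptor signalling. They are Egr1, Egr2, Egr3, Nr4a1, Nr4a2, Nr4a3, Fos, Fosb, Jun and Junb. The choice was made with earlier results of these data known. It leaves out relatives such as Egr4, Fosl1, Fosl2 and Jund, which are counted in another list below. Each was read from the probe set whose only annotated gene it is, which gave 10 of the 19518 genes measured on the array, with 1 probe set per member. The cells were γδNKT thymocytes, an innate-like population sorted as CD4+CD8α- cells from mice of 3 PLZF genotypes, with 1 Affymetrix array for each genotype. PLZF lu/lu mice are homozygous and PLZF +/lu mice heterozygous for luxoid, a point mutation of Zbtb16, the gene of the transcription factor PLZF, and PLZF +/+ mice carry the wild-type gene. All were females on the C57Bl/6 background aged 3 to 4 weeks, and per the study's methods all lacked Rag1 and carried the Vγ1Vδ6.4 TCR transgenes. Their T cells therefore bear a receptor set by the transgenes and make no rearranged receptor of their own. By the paper's account of earlier work, most but not all CD4+CD8- thymocytes of these transgenic mice express PLZF. The cells were sorted ex vivo into TRIzol, no stimulation is described for them, and how many animals each array stands for is unknown from these sources. The question put to the arrays was which genes depend on PLZF, and here it is asked of the genes that report receptor signalling.

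The Egr proteins are zinc finger transcription factors that are induced through the Ras and MAP kinase pathway, and Egr2 is known to activate Zbtb16 during NKT cell development. The Nr4a proteins are orphan nuclear receptors induced by calcium and MAP kinase signals, and Nr4a1, which encodes Nur77, is widely used as a reporter of TCR signal strength. Fos and Jun proteins pair to form AP-1, which binds with NFAT at many cytokine genes. Transcripts of all 3 families are short-lived, and they can also be induced by the handling of cells.

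The bases before the transcription starts of these genes are shown because these genes are known to be induced through short elements there that bind CREB, SRF and Egr proteins. RefSeq promoters of build GRCm38.p6 were at hand for 8 of the 10 genes, and 250 bases before each start were searched on both strands. The core of the cyclic AMP response element (CRE), TGACG, was found before a start of 7 of these 8 genes, namely Egr2, Nr4a1, Nr4a2, Nr4a3, Fos, Fosb and Junb. It occurred in 17.8% of all 32851 promoters in the table, in 29.8% of the genes above background on the arrays, and in 26.7% of promoters with a GC content of at least 58.4%, the lowest among these genes. Egr2 had 5 annotated starts and so more chances of a match. The Egr site GCGNGGGCG was found for Nr4a1, Nr4a2 and Fosb, and occurs in 4.7% of all promoters, in 10.1% of the genes above background and in 13.1% of the promoters with that GC content. A CArG box, the site of SRF, was found for Egr2 and occurs in 1.47% of promoters. The whole CRE, TGACGTCA (1.55% of promoters), the AP-1 site TGACTCA (4.46%) and the Nr4a site AAAGGTCA (1.34%) were found for none of the 8. The NFAT core GGAAAA was found for Egr2 and in 20.4% of promoters. Only the CRE core lies within another of these motifs, the whole CRE. It was added to the search after the other motifs had been counted. A match is a description of letters in this window and not a bound site. Elements outside the window, or with letters that differ from the motif, were not counted. A motif not found, such as a CArG box for genes other than Egr2, therefore does not mean that the gene lacks the element. Stretches of 5 genes are given 5′ to 3′ with the CRE core, the CArG box and the Egr site in capitals, Egr2, Nr4a1, Fos and Junb since their differences between PLZF lu/lu and PLZF +/+ cells were the widest among the 8 genes, and Nr4a2 since its range over the 3 genotypes was the widest. A core on the other strand reads CGTCA, and an Egr site there CGCCCCCGC. The stretch of Egr2 is shared by 3 of its 5 annotated starts and is limited to 30 bases.
Egr2, chr10:67537793-67537822, + strand: cagtCCATATATGGgcagcgaCGTCAcggg
Nr4a1, chr15:101266603-101266820, + strand: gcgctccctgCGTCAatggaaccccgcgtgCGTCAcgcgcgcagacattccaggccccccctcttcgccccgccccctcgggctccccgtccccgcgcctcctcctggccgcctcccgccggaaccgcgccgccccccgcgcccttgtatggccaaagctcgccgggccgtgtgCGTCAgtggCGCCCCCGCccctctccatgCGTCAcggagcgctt
Fos, chr12:85473751-85473838, + strand: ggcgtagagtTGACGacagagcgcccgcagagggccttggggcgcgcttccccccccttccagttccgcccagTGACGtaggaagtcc
Junb, chr8:84978840-84978864, - strand: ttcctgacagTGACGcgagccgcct
Nr4a2, chr2:57124059-57124213, - strand: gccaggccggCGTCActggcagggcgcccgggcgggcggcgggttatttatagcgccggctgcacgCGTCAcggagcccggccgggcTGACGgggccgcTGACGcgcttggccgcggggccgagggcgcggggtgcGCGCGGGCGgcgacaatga

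**Figure D1:**
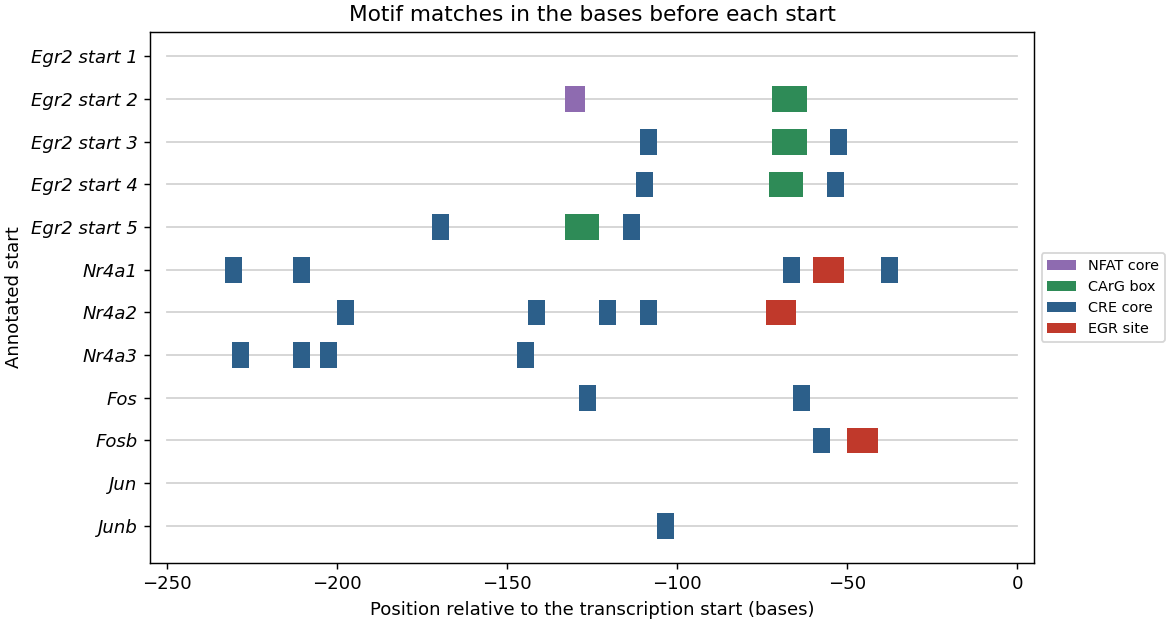
Matches to the CRE core, Egr site, CArG box and NFAT core (coloured bars) in the 250 bases before each annotated start of 8 genes, with position in bases from the start on the horizontal axis. Nr4a1, Nr4a2 and Nr4a3 each hold 4 CRE cores, and no motif was found before the start of Jun.

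Several facts of the arrays bear on every value below. The intensities, in linear units as the authors left them, had medians of 159.7 in PLZF lu/lu, 161.8 in PLZF +/lu and 160.0 in PLZF +/+ cells. With 1 array per genotype nothing could be tested against replicates, so p-values are absent and a fold above 2 is a rule of size. A background level of 108 was taken as the value below which 95% of the intensities of 1033 olfactory receptor probe sets lie. Of all genes, 46.8% had the same value on all 3 arrays, and of genes above background 33.6% did. Why values were equal is unknown from these sources, so equality is not read as a constant transcript level. Differences also leaned to one side, since 35.7% of the 11973 genes above background were lower in PLZF lu/lu than in PLZF +/+ cells and 19.6% were higher. Zbtb16 itself was at 2890 in PLZF lu/lu, 6143 in PLZF +/lu and 8796 in PLZF +/+ cells, which is the order of the genotypes. A transcript with a point mutation can still bind the probes, so no level was fixed in advance. The values are therefore not used as a check of the labels. Of 13 markers of the sorted cells 12 lay above background on each array, among them Cd3e, Cd3g, Thy1 and Cd4, while Klrb1c, which encodes NK1.1, was at 29.5 on all 3. Of the 13, 7 were higher in PLZF lu/lu than in PLZF +/+ cells, 4 lower and 2 equal, with a median log2 difference of 0.00. The lower ones were Zbtb16, Icos, Cd44 and Il4, and the widest of the higher ones was Cd2, by 1.27-fold. The part of these markers in the differences of the members was not tested. Icos, a costimulatory receptor, was at 1198 in PLZF lu/lu, 1758 in PLZF +/lu and 2733 in PLZF +/+ cells, 2.28-fold lower in PLZF lu/lu, and Cd44 and Il4 were 1.33-fold and 1.32-fold lower. The summed intensity of the 13 markers was 64203 in PLZF lu/lu, 65726 in PLZF +/lu and 68603 in PLZF +/+ cells.

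None of the 10 genes differed by more than 2-fold between any of the genotypes. Between PLZF lu/lu and PLZF +/+ cells, 8 of the 10 were lower in PLZF lu/lu, Jun was higher and Nr4a3 was equal. The lower ones included Egr1, Fos, Egr2 and Nr4a1, by 1.30-fold to 1.43-fold. The median log2 difference of the 10 genes was -0.25, against 0.00 over all genes and 0.00 over genes above background. By the 2-fold rule 0.43% of all 19518 genes were called in this comparison, so that no call among 10 genes is not a result about them. By direction alone, 24.9% of all genes were lower in PLZF lu/lu and 16.9% were higher. The other 11344 of 19518 genes were equal, as were 5356 of 11973 genes above background. Both medians of 0.00 therefore rest on equal values, whereas Nr4a3 alone was equal among the 10. The lean of the 10 genes is thus not comparable with these shares and medians. The lowest of the 3 values was that of PLZF lu/lu for the same 8 genes, which held for 13.9% of all genes and 18.4% of genes above background. Genes equal on all 3 arrays have no lowest value, so these shares are not comparable with the 8 of 10 either. The count uses the same PLZF lu/lu and PLZF +/+ values as the lean and is not a separate result.

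**Figure D2:**
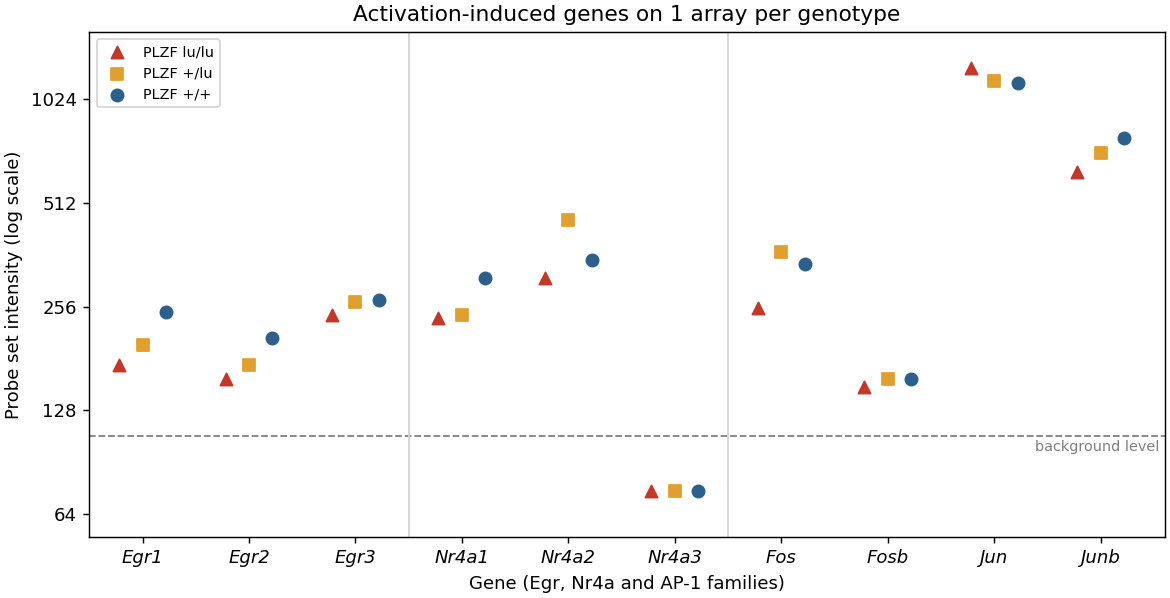
Probe set intensity on a log axis for each gene, with triangles for PLZF lu/lu, squares for PLZF +/lu and circles for PLZF +/+, 1 array each and so no error bars, and the background level of 108 as a dashed line. Nr4a3 is the gene below the line, at 74.8 on all 3 arrays, and Nr4a2 and Fos have their highest value in PLZF +/lu.

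All 3 Egr genes were lowest in PLZF lu/lu and highest in PLZF +/+ cells. Egr1, the most widely used immediate early reporter of MAP kinase signalling, had intensities of 173 in PLZF lu/lu, 199 in PLZF +/lu and 247 in PLZF +/+ cells. It was 1.43-fold lower in PLZF lu/lu than in PLZF +/+, the widest difference of the 10 genes in that comparison, and 1.245-fold lower in PLZF +/lu. Egr2, which acts upstream of Zbtb16 in NKT cells, was at 158 in PLZF lu/lu, 173 in PLZF +/lu and 208 in PLZF +/+ cells. This is a 1.32-fold lower level in PLZF lu/lu, and PLZF +/lu lay between the homozygous genotypes. Egr3, which shares targets with Egr2, was at 242 in PLZF lu/lu, 264 in PLZF +/lu and 267 in PLZF +/+ cells, with PLZF +/lu next to PLZF +/+ and a difference of 1.10-fold between the homozygous genotypes.

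The Nr4a genes had a different order over the genotypes in each case. Nr4a1 was at 238 in PLZF lu/lu, 242 in PLZF +/lu and 309 in PLZF +/+ cells. The mutant genotypes lay close together, 1.30-fold and 1.28-fold below PLZF +/+. Nr4a2, which encodes Nurr1, was at 309 in PLZF lu/lu, 457 in PLZF +/lu and 348 in PLZF +/+ cells. PLZF +/lu was thus the highest, 1.31-fold above PLZF +/+, and the difference of 1.48-fold between PLZF lu/lu and PLZF +/lu was the widest between any genotypes for the 10 genes. Nr4a3, which encodes Nor1, was at 74.8 on all 3 arrays, below the background level, so its equality says nothing of its transcript.

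Among the AP-1 genes, Fos, Fosb and Junb were lowest in PLZF lu/lu and Jun was highest there. Fos was at 254 in PLZF lu/lu, 369 in PLZF +/lu and 340 in PLZF +/+ cells. It was 1.34-fold lower in PLZF lu/lu than in PLZF +/+ and 1.45-fold lower than in PLZF +/lu, where it was highest. Junb, a Jun protein with weaker transactivation than c-Jun, was at 631 in PLZF lu/lu, 715 in PLZF +/lu and 788 in PLZF +/+ cells. It was 1.2497-fold lower in PLZF lu/lu than in PLZF +/+, and PLZF +/lu stood between. Fosb was at 150 in PLZF lu/lu and at 158 in both PLZF +/lu and PLZF +/+ cells, a difference of 1.05-fold. Jun was at 1264 in PLZF lu/lu, 1159 in PLZF +/lu and 1139 in PLZF +/+ cells, 1.11-fold higher in PLZF lu/lu and the only one of the 10 above PLZF +/+ there.

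A lower threshold of 1.25-fold was added after these values were seen, to describe the genes rather than to call them. Egr1, Egr2, Nr4a1 and Fos were lower in PLZF lu/lu than in PLZF +/+ by more than this, 4 of 10, against 2.99% of all genes and 4.67% of genes above background. Just inside was Nr4a1, 1.30-fold lower, and just outside was Junb, 1.2497-fold lower. None of the 10 was higher by as much, while 1.73% of all genes were. At 1.5-fold none of the 10 was called in either direction, and 1.43% of all genes were. The threshold was set with the values known, so these counts are no support for a difference.

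**Figure D3:**
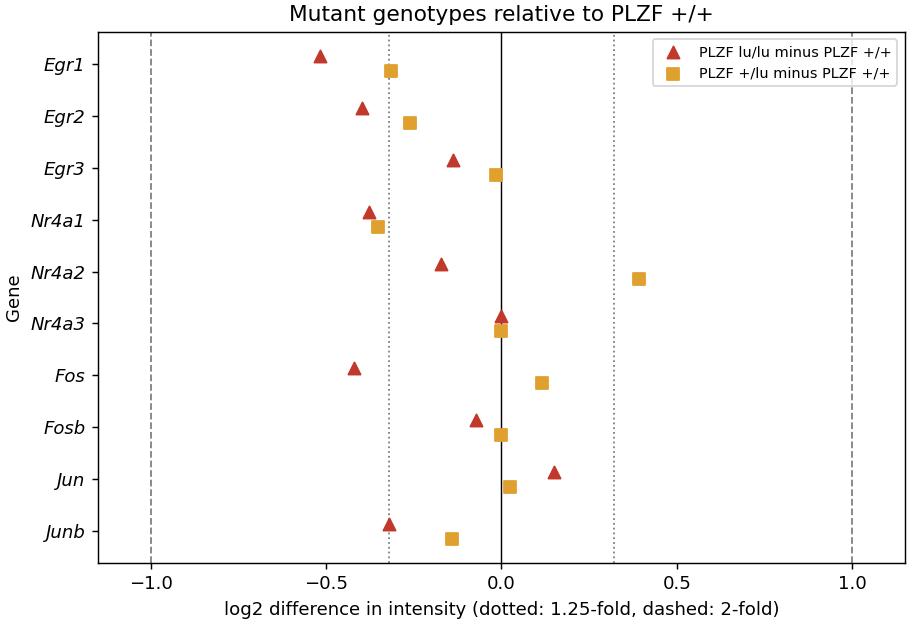
log2 difference in intensity from PLZF +/+ for PLZF lu/lu (triangles) and PLZF +/lu (squares), 1 value per gene and genotype, with 1.25-fold as dotted and 2-fold as dashed lines. The triangles of 8 genes lie left of 0, and all symbols lie inside the 2-fold lines, from -0.52 for Egr1 in PLZF lu/lu to 0.39 for Nr4a2 in PLZF +/lu.

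PLZF +/lu cells differed from PLZF +/+ in no shared direction. Of the 10 genes 5 were lower in PLZF +/lu, 3 were higher and 2 were equal, with a median log2 difference of -0.01. Over all genes 23.6% were lower and 21.2% higher, and 10777 of 19518 were equal. Nr4a1 was lower and Nr4a2 higher by more than 1.25-fold, as 2.61% of all genes were lower and 1.31% higher. None passed 2-fold, where 0.133% of all genes did. Against PLZF +/lu, 8 of the 10 genes were lower in PLZF lu/lu, 1 was higher and 1 was equal, with a median log2 difference of -0.13. Over all genes 24.6% were lower and 19.7% higher, and 10879 of 19518 were equal. Nr4a2 and Fos were lower there by more than 1.25-fold, against 1.18% of all genes, and 0.123% of all genes passed 2-fold in this comparison. These comparisons share arrays, so their counts are not independent of each other.

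With the heterozygote set between the homozygotes, Egr1, Egr2, Egr3, Nr4a1, Jun and Junb had PLZF +/lu strictly between PLZF lu/lu and PLZF +/+, 6 of the 10 genes. This held for 11.4% of all genes and 17.4% of genes above background, many of the others having equal values on several arrays. Nr4a2 and Fos had PLZF +/lu highest, which 13.0% of all genes had. On a scale where PLZF lu/lu is 0 and PLZF +/+ is 1, the 6 genes did not share a place for PLZF +/lu. It was at 0.07 for Nr4a1, 0.34 for Egr2, 0.39 for Egr1, 0.56 for Junb, 0.84 for Jun and 0.88 for Egr3.

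Nr4a2 had the widest range over the 3 arrays, 0.57 on the log2 scale. The genes nearest to it were taken by the Euclidean distance between log2 values centred on each gene's own mean, over 3 arrays and 11972 genes above background. They were Prss57, Tns1, Olfr239, Tdrd5 and Ifi214, at distances of 0.03 to 0.07. Prss57 was above background in PLZF +/lu alone, at 75.1 in PLZF lu/lu, 109.6 in PLZF +/lu and 82.6 in PLZF +/+ cells, so its distance rests on values below that level. Tns1, which encodes the focal adhesion protein tensin 1, was at 714 in PLZF lu/lu, 1081 in PLZF +/lu and 806 in PLZF +/+ cells. In all, 14 genes lay within a distance of 0.1, and an olfactory receptor gene is among the nearest 5, so likeness over 3 arrays is a weak description.

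The other genes of the activation programme were taken from 7 lists, heat shock genes included, of which 155 of 165 genes were measured. In PLZF lu/lu compared with PLZF +/+ cells, 67 were lower, 38 higher and 50 equal, with a median log2 difference of 0.00. Zbtb16, listed as a target of Egr2, was the only one past 2-fold. As the gene mutated in these mice, it is not a separate readout of the activation programme. At 1.5-fold 10 were lower, Zbtb16 included, and 3 higher, where 0.856% and 0.579% of all genes were.

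Egr proteins induce their own co-repressors. Nab2, which binds Egr proteins and represses their targets, was at 530 in PLZF lu/lu, 557 in PLZF +/lu and 906 in PLZF +/+ cells, 1.71-fold lower in PLZF lu/lu with PLZF +/lu close beside it. Its relative Nab1, named after its value was seen, was at 1058 in PLZF lu/lu, 899 in PLZF +/lu and 1030 in PLZF +/+. Of the 17 measured co-repressors and targets of Egr proteins, 9 were higher in PLZF lu/lu, 5 lower and 3 equal, with a median of 0.03 on the log2 scale. On the higher side were Dgka, a kinase that removes diacylglycerol and is induced in anergic T cells, by 1.37-fold, and Crtam, an adhesion receptor of activated T cells, by 1.32-fold. The remaining 12 family genes, among them Egr4, Fosl2, Batf2 and Batf3, had none past 1.25-fold. Of them 4 were lower in PLZF lu/lu, 2 higher and 6 equal, and the 4 named differed by 1.07-fold to 1.10-fold.

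Of 39 other immediate early and early response genes, 24 were lower in PLZF lu/lu, 7 higher and 8 equal, with a median log2 difference of -0.07. Past 1.25-fold, the threshold added later, 9 were lower and 2 higher in PLZF lu/lu than in PLZF +/+ cells. Over all genes 2.99% were lower and 1.73% higher by as much. Of the 36 above background 8 were lower, against 4.67% of all genes above background. The threshold was set with values known, so these counts are no support for a difference. Dusp5, a nuclear phosphatase of ERK, was at 373 in PLZF lu/lu, 431 in PLZF +/lu and 664 in PLZF +/+ cells, 1.78-fold lower in PLZF lu/lu. Dusp1, a phosphatase of several MAP kinases, was at 2898 in PLZF lu/lu, 4693 in PLZF +/lu and 4451 in PLZF +/+ cells, the order of Fos. Moving the other way was Rgs1, an inhibitor of chemokine receptor signalling, at 1305 in PLZF lu/lu, 1127 in PLZF +/lu and 678 in PLZF +/+. The kinase gene Sgk1 was higher in PLZF lu/lu as well, by 1.63-fold. Ier2, Dusp4 and Btg1, likewise early response genes and named here after their values were seen, were equal on all 3 arrays. The same held for 33.6% of genes above background, so this is not a result about them.

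Of 18 NFAT and NF-κB genes and inhibitors, 10 were lower in PLZF lu/lu, 2 higher and 6 equal, with a median log2 difference of -0.05. Tnfaip3, which encodes the NF-κB inhibitor A20, was at 695 in PLZF lu/lu, 1369 in PLZF +/lu and 1049 in PLZF +/+ cells, lowest in PLZF lu/lu and highest in PLZF +/lu as Nr4a2 and Fos were. Traf1, Nfkbib and Nfatc2 were lower in PLZF lu/lu by 1.10-fold to 1.19-fold.

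Genes that follow later in activation went both ways. Of 28 measured, 10 were lower in PLZF lu/lu, 6 higher and 12 equal, with a median of 0.00 on the log2 scale. Pdcd1, the gene of the inhibitory receptor PD-1, was at 2948 in PLZF lu/lu, 3712 in PLZF +/lu and 4634 in PLZF +/+ cells, 1.57-fold lower in PLZF lu/lu. Cd160 was lower by 1.31-fold and Slc3a2, a chain of amino acid transporters, by 1.22-fold. Irf4, a transcription factor graded with TCR signal strength, was at 135 in PLZF +/+ and below background in both mutant genotypes, so no exact fold is given. Cd69 and Cd5, surface proteins that rise with TCR signalling, were named after their values were seen. Cd69 was at 1009 in PLZF lu/lu, 918 in PLZF +/lu and 843 in PLZF +/+ cells, and Cd5 at 2392 in PLZF lu/lu, 2057 in PLZF +/lu and 1972 in PLZF +/+, the reverse of the order of the Egr genes.

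**Figure D4:**
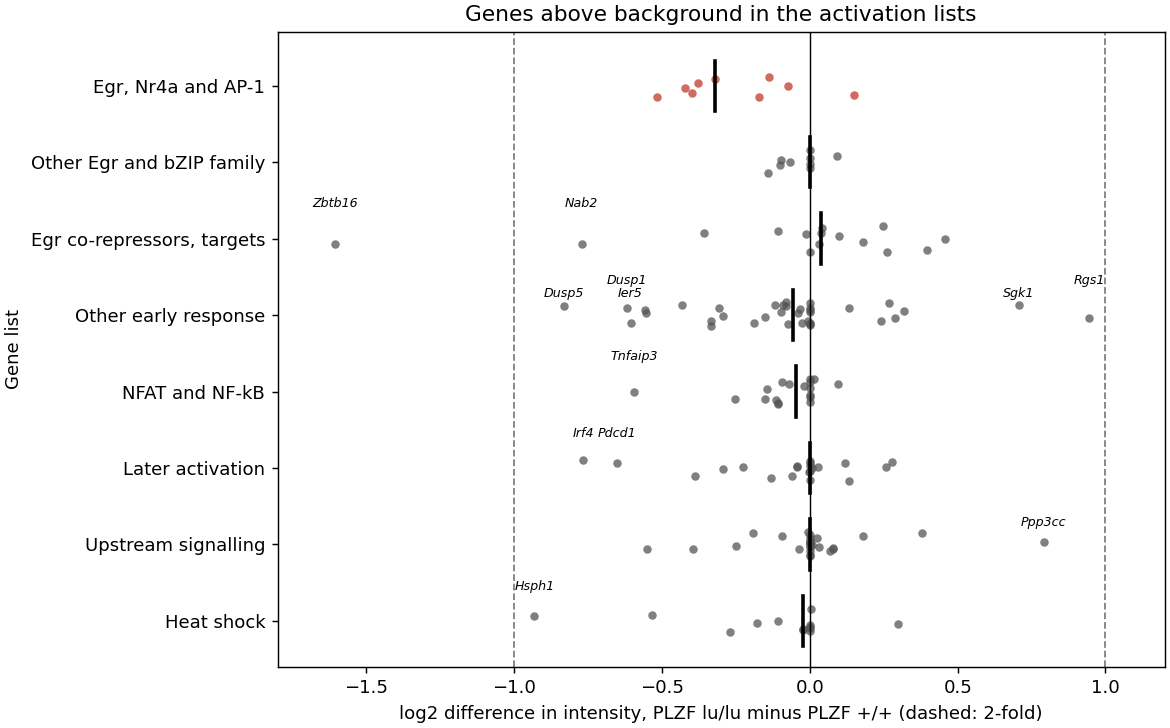
log2 difference in intensity between PLZF lu/lu and PLZF +/+ for genes above background, with 1 point per gene, 1 row per list, black bars at the medians, and names for genes past 1.5-fold. The 9 Egr, Nr4a and AP-1 genes (red) have a median of -0.32, and the medians of the 7 lists below them lie between -0.06 and 0.04. Each list holds genes equal in both genotypes, from 1 of 15 Egr co-repressors and targets to 4 of 9 other family genes. The 9 genes in red hold none, as the equal Nr4a3 is below background, so the medians are not comparable.

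Of 28 measured genes of the pathway upstream, from Ras to MAP kinases, SRF, CREB, MEF2 and calcineurin, 10 were higher in PLZF lu/lu, 7 lower and 11 equal, with a median log2 difference of 0.00. Map2k1, which encodes the ERK kinase MEK1, was at 928 in PLZF lu/lu, 1156 in PLZF +/lu and 1359 in PLZF +/+ cells. Calcineurin subunits differed in direction, with Ppp3ca 1.32-fold lower and Ppp3cc 1.73-fold higher in PLZF lu/lu. Rasgrp1, the exchange factor that activates Ras in thymocytes, was 1.30-fold higher. Srf and Elk1, named after their values were seen, were at 1318 and 968 in PLZF lu/lu and at 1323 and 1106 in PLZF +/+ cells.

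Heat shock genes, some of which can follow cell handling, were lower, higher or equal in PLZF lu/lu. Some markers of other thymocytes were higher there. Of 13 measured heat shock genes 7 were lower in PLZF lu/lu, 2 higher and 4 equal. Their summed intensity was 27249 in PLZF lu/lu, 27683 in PLZF +/lu and 31976 in PLZF +/+ cells. Hsph1 was 1.91-fold lower in PLZF lu/lu, Hspa5 1.45-fold and Hspa8 1.21-fold, while Hspa1a was 1.23-fold higher. Of 6 measured genes of the CD8 coreceptor and of CD4+CD8+ thymocytes, Cd8b1 was 2.29-fold higher in PLZF lu/lu, Cd8a 1.63-fold and Dntt 1.30-fold, and 3 were equal. Their summed intensity was 5039 in PLZF lu/lu, 4207 in PLZF +/lu and 3091 in PLZF +/+ cells. The part of either list in the order of the Egr, Nr4a and AP-1 genes was not tested. In these bulk samples, fewer cells with a transcript and less of it per cell cannot be told apart.

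Most markers of other cells were below background, and some were not. Lyz2, Csf1r and Adgre1 of myeloid cells, Cd79a and Ms4a1 of B cells, and Epcam and Krt5 of thymic epithelium were below 108 on every array, while Cd68 of the myeloid list was at 386 on all 3 and Cd79b of the B cell list was at 1406 in PLZF lu/lu, 1440 in PLZF +/lu and 1658 in PLZF +/+ cells. Above background were 2 of 9 myeloid, 2 of 7 dendritic cell, 2 of 5 B cell, 3 of 6 epithelial and 2 of 4 erythroid genes. The summed intensity of 9 myeloid genes was 931 in PLZF lu/lu, 950 in PLZF +/lu and 958 in PLZF +/+ cells. That of 7 dendritic cell genes was between 672 and 673 on the 3 arrays, and that of 4 erythroid genes between 446 and 463. For 5 B cell genes the sum was 1657 in PLZF lu/lu, 1692 in PLZF +/lu and 1908 in PLZF +/+, of which Cd79b made up most. Thymic epithelial genes, 6 in number, summed to 641 in PLZF lu/lu, 657 in PLZF +/lu and 652 in PLZF +/+ cells.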

How the data were processed

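Affymetrix Mouse Gene 1.0 ST arrays were hybridised for 1 sample per genotype. GenePattern 3.21 (ExpressionFileCreator, MultiplotPreprocess, Multiplot) was what the authors used, normalization controls were taken out, and the deposited value is an intensity per probe set in linear units. The build mm8 is named by the submitters' processing notes. The methods of background correction and summarisation were not given in the sources used here. All 3 columns were matched to a sample.

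Of 24800 probe sets, 21065 have 1 annotated gene, 1187 several and 2548 none. For 20983 the symbol was updated by Entrez identifier with the RefSeq table of GRCm38.p6, and a gene with several probe sets was read from the brightest. Gene coordinates are given only for RefSeq promoters, in their own build. Intensities were compared as log2 differences, with values within 1e-06 taken as equal, and were used without further scaling. With 1 array per genotype no test could be made, and precision is limited by how few arrays there are. The counting of genes past 2-fold was checked on simulated arrays.

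The named genes are the 10 members and, in each list other than the cell type markers, genes past 2-fold and the 4 above background with the largest difference between PLZF lu/lu and PLZF +/+, unless said to be chosen later. The members and lists were chosen with earlier results of these data known. The alternatives tried were cyclic loess, quantile normalization, median centring, adding 32, leaving out dim genes, averaging probe sets, the mean of PLZF +/lu and PLZF +/+ as wild type, and folds of 1.25, 1.5 and 3. Python 3.11.15, numpy 2.4.6, pandas 2.3.3, matplotlib 3.10.9, R 4.3.3 and limma 3.58.1 were used.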

Additional observations from a re-analysis of the deposited data

How the results depend on the processing

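The fold of 1.25 was chosen after seeing the data. At this fold 4 of the 10 genes were past the threshold between PLZF lu/lu and PLZF +/+, 2 between PLZF +/lu and PLZF +/+, and 2 between PLZF lu/lu and PLZF +/lu, where 2-fold gave 0 in each. Of all 19518 genes, 922, 766 and 456 were past 1.25-fold in these comparisons, in the same order. Of the 155 genes in the activation lists, 26 were past 1.25-fold and 13 past 1.5-fold between PLZF lu/lu and PLZF +/+. At 2-fold there was 1, the mutated gene Zbtb16, which is also among those counted at the lower folds. In that comparison 922 of all 19518 genes were past 1.25-fold, 280 past 1.5-fold and 84 past 2-fold. Under quantile normalization, centring, cyclic loess, 32 added, dim genes left out, averaged probe sets and a wild-type level averaged over PLZF +/lu and PLZF +/+, no member passed 2-fold. The median of the members between PLZF lu/lu and PLZF +/+ was then -0.32 to -0.21 on the log2 scale. No member with a difference changed its sign in that comparison under these alternatives, and Nr4a3, equal as deposited, took values from -0.01 to 0.00. With the averaged wild-type level the sizes of Nr4a1 and Nr4a2 moved by over 1.5 times, to -0.20 for Nr4a1, against -0.38 as deposited, and to -0.37 for Nr4a2, against -0.17 as deposited. PLZF +/lu was between the others for 6 or 7 members. Averaging probe sets changed nothing for the members, which have 1 probe set each. No paired analysis was possible because each genotype has 1 array. Members near the background level, such as Fosb and Egr2, can have their differences compressed, by an amount that was not measured.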
